A study of Oncorhynchus mykiss with 24 samples.

Results

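Livers of rainbow trout (Oncorhynchus mykiss) fed indole-3-carbinol (I3C) at 500 ppm were compared with livers of trout fed 3,3'-diindolylmethane (DIM) at 500 ppm. The comparison used the 8 arrays whose titles give the low dose of either compound, of 24 arrays in the series. These 8 arrays hold 4 of the 12 treated RNA samples, 2 per diet, each hybridised once with the treated RNA in Cy3 and once in Cy5. The first group is I3C at 500 ppm and the second is DIM at 500 ppm. I3C and DIM at 1500 ppm, 17β-estradiol (E2) at 5 ppm and β-naphthoflavone (BNF) at 500 ppm served for reference values and for the shared estimate of the spread. All fish were Mt. Shasta strain, 12 to 18 months old, held 6 to a tank in 2 tanks per treatment. They ate the test diet for 12 days and were sampled on day 13. Every treated RNA was read against 1 pool of liver RNA from 12 fish on a vehicle diet with 0.15% dimethyl sulfoxide. That pool cancels when the diets are compared with each other. Which fish stand behind a treated sample is not given in the labels, so the p-values speak only of sample-to-sample spread, part of which may be technical.

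I3C is a single indole ring that carries a hydroxymethyl group, released when cruciferous vegetables are crushed. In stomach acid it condenses into several products, of which DIM, a pair of indole rings joined by a methylene bridge, is the best known. Both compounds are ligands of the aryl hydrocarbon receptor, a transcription factor that switches on cytochrome P450 genes, and in trout both have been described as estrogen-like. The series title names the test agents tumor promoters. Setting both diets at the same dose asks how far the liver answers the parent compound and its dimer alike.

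Values below are log2 ratios of treated RNA to the vehicle pool, after centring each array on its median, averaging the 2 adjacent spots of a feature and averaging the dye swap. The 8736 spots gave 4368 features. Within the 8 arrays the 2 spots of a feature correlated at 0.806 to 0.912 over features. Base 2 was taken for the deposited logs, which ran from -10.1 to 7.16 over the series. In base 10 that is past 4.82, the largest ratio of a pair of 16-bit readings, while the natural log is not settled by this range. A positive ratio was read as higher in treated fish because Cy3 is channel 1 on every array, but no source used here states the numerator, so all directions are only likely. Both arrays of DIM replicate 1 ran against the arrays of the same dye orientation, with median correlations over features of -0.59 and -0.76, and no label settles their direction. The part of that sample that does not change sign with the swap, which holds dye bias and no diet effect, correlated at -0.80 with the mean of the other samples. The samples that were not turned stood at 0.617 to 0.964. DIM replicate 1 was therefore turned, as was E2 replicate 1 (-0.87), and each count was repeated with the signs as deposited. After turning, the 2 DIM samples correlated at 0.85 over features and the 2 I3C samples at 0.37. With deposited signs the DIM samples oppose each other.

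At 500 ppm the livers of I3C-fed fish differed from those of DIM-fed fish in 123 of 4368 features (2.82%). The test was limma over all 12 samples, with a Benjamini-Hochberg adjusted p under 0.05 as a call. Of these, 83 (1.9%) were higher and 40 (0.916%) lower in I3C. The median difference was 1.16 in the features called higher and -1.04 in those called lower. Of the 123, 91 exceeded 1 log2 unit, against 119 of all 4368 features. The smallest called difference was 0.77 in size, so these sizes partly follow from the threshold. Without centring, the count was 105, of which only 63 were shared with the 123. The split turned to 24 higher and 81 lower, and the median difference of all features then lay at -0.44. With signs as deposited, limma called 0 features, with 95 at an unadjusted p under 0.05. Leaving out I3C replicate 2 gave 49 calls, leaving out DIM replicate 1 gave 37 and leaving out DIM replicate 2 gave 47. The lone sample of a diet is then assumed to vary like the other groups.

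After centring, the differences sat mostly in the DIM samples. The 83 features called higher in I3C had a median log2 ratio to the pool of -0.34 in I3C and -1.54 in DIM. The 40 called lower in I3C had a median of 0.28 in I3C and 1.34 in DIM. Of the 123, 8 were called in I3C against the pool and 122 in DIM. Over all features, I3C against the pool called 33 (0.755%), of which 18 (0.412%) were higher and 15 (0.343%) lower. DIM against the pool called 464 (10.6%), of which 143 (3.27%) were higher and 321 (7.35%) lower. The I3C mean lay within 0.5 of the pool for 91 of the 123, and the DIM mean lay more than 1 away for 105. The 123 were chosen by these same values, which favours features with I3C near the pool, so their counts are a description. The counts over all features do not depend on that choice, but they depend on the processing. Uncentred, I3C called 818 and DIM 333 against the pool, the reverse order. With arrays scaled alike the counts were 1 in I3C and 618 in DIM, and with signs as deposited each diet called 0. The plot of mean ratios shows these features spread along the DIM axis and mostly nearer the pool on the I3C axis.

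**Figure D1:**
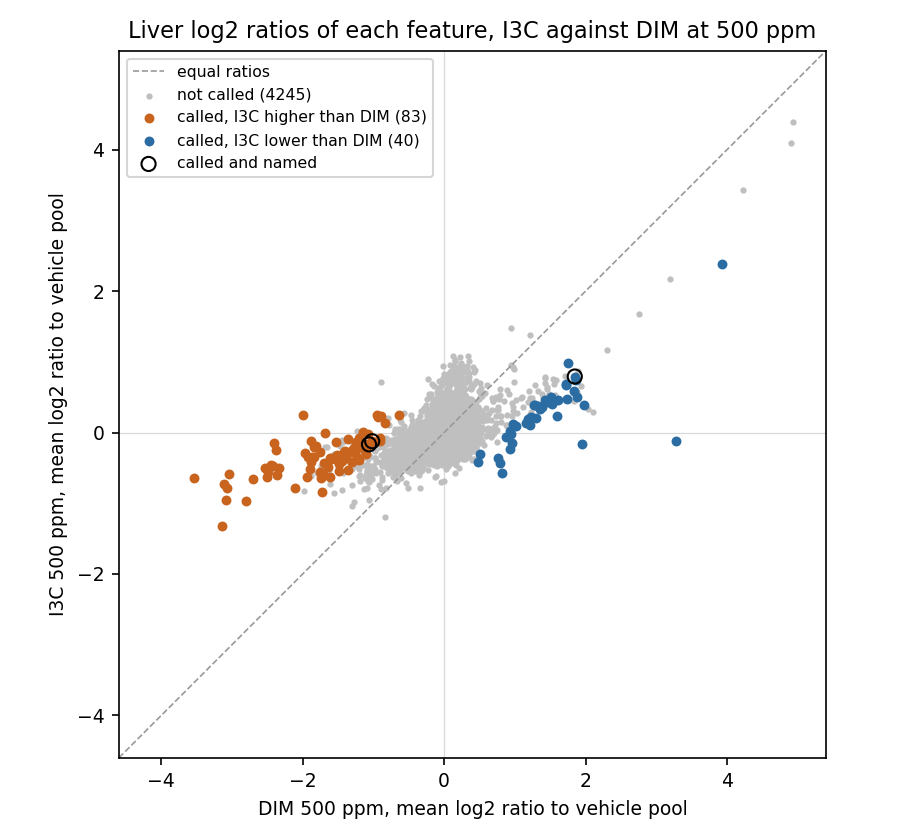
Each point is 1 of 4368 features, with its mean log2 ratio to the vehicle pool in I3C at 500 ppm (vertical axis, n = 2 samples) and in DIM at 500 ppm (horizontal axis, n = 2). Orange marks the 83 features called higher and blue the 40 called lower in I3C, rings mark the 3 called features with a gene name, and the dashed line marks equal ratios.

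At the level of samples, both I3C values lay on 1 side of both DIM values for all 123 called features, and for 1833 of all 4368 (42%). At the level of arrays, the 4 I3C values lay on 1 side of the 4 DIM values for 77 of the 123, against 160 of all features (3.66%). The difference had the same sign on arrays with treated RNA in Cy3 and on arrays with it in Cy5 for 123 of the 123, against 42.3% of all features. The calls rest on these same sample and array values. Such counts are therefore largely built into the choice of the 123 and are no separate evidence. Fits of 1 orientation alone called 50 and 22 features. Dye bias was wider on the I3C arrays: the part that does not change with the swap had an SD over features of 0.69 and 0.62 in the 2 I3C samples, against 0.34 and 0.45 in the 2 DIM samples. In the I3C samples, 53 and 54 of the 123 features had the same sign on both arrays of a swap, against 122 and 123 in the DIM samples. Over all features the shares were 15.5% and 24.8% in the I3C samples, and 43.8% and 32.3% in the DIM samples. A dye effect that adds equally to both arrays of a swap cancels in the sample values. A fit of all 24 arrays with a dye term called 174 features, of which 122 were among the 123. The called features were spread over 43 of the 48 print blocks, with at most 7 of 91 features in a block.

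Only 49 of the 4368 features carried a gene name, so the largest differences lie in unnamed features. The feature on spots 7040405 and 7040406 stood at -0.46 and -0.83 in the 2 I3C samples, against -3.56 and -3.51 in the 2 DIM samples. All 4 I3C arrays lay above all 4 DIM arrays, which was a condition for choosing this feature. The difference of 2.89 ± 0.22 (SE, n = 2 per diet) had a limma adjusted p of 7.98e-06. The feature on spots 4020413 and 4020414 was at -0.21 and -0.97 in I3C, against -2.98 and -3.10 in DIM, a difference of 2.45 ± 0.44 (limma adjusted p = 0.00841). That call was lost without DIM replicate 1 (limma adjusted p = 0.0567) and without DIM replicate 2 (0.0659). Both features were low in DIM and closer to the pool in I3C, where the arrays of replicate 1 had opposite signs.

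In the opposite direction, spots 4010307 and 4010308 stood at -0.13 and -0.12 in I3C, against 3.87 and 2.68 in DIM. This was the widest gap between the diets, at -3.40 ± 0.43 (limma adjusted p = 0.000404), although the arrays of a swap had opposite signs in both I3C samples. Spots 3021105 and 3021106 were at -0.099 and -0.22 in I3C, against 2.04 and 1.87 in DIM, a difference of -2.12 ± 0.33 (limma adjusted p = 0.00225). Its swap arrays also had opposite signs in each I3C sample. These 2 features were called higher in DIM than in the pool, and neither was called in I3C. The 2 spots of each of these 4 features, taken singly, gave differences of 2.89 and 2.88, 2.51 and 2.39, -3.32 and -3.49, and -2.02 and -2.21.

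**Figure D2:**
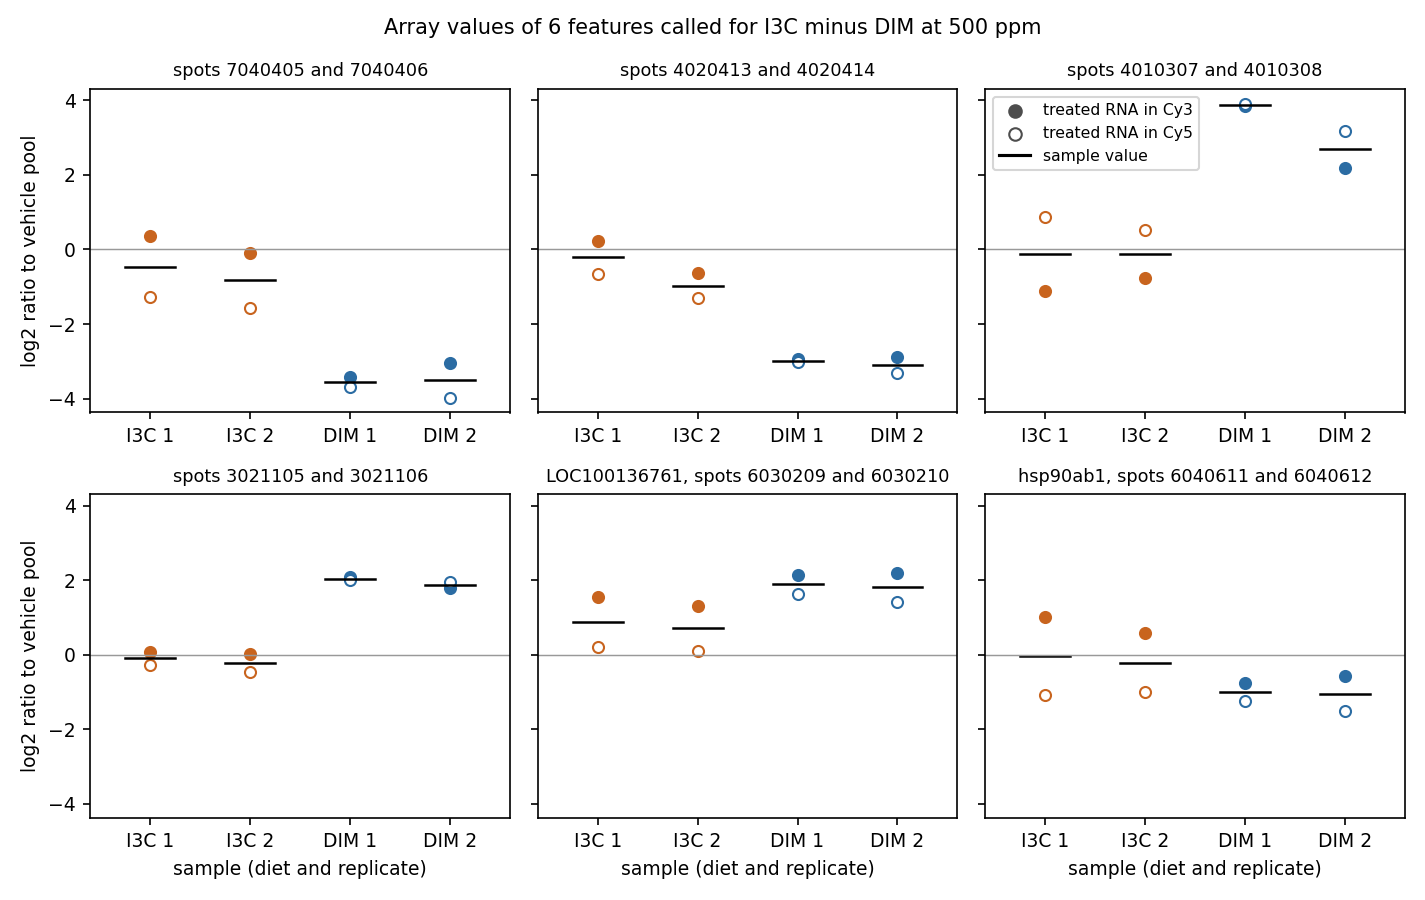
Log2 ratio to the vehicle pool on each of the 8 arrays for 6 called features, with I3C samples in orange and DIM samples in blue. Filled circles have the treated RNA in Cy3, open circles in Cy5, and bars give the sample value. The 4 unnamed features were chosen among those whose I3C arrays do not reach the DIM arrays, so their separation is no finding. LOC100136761 and hsp90ab1 were chosen by p alone, and their arrays overlap between the diets.

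Of the 49 named features, 3 were called for I3C minus DIM, from 2 genes. Their share, 3 of 49, can be read against the 2.82% called among all features. None of the 49 had its 4 I3C arrays apart from its 4 DIM arrays, against 3.66% of all features. The median size of the difference was 0.25 over the named features and 0.18 over all. An unadjusted p under 0.05 was reached by 11 of the 49, against 10.1% of all features.

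LOC100136761, for which the tables used here give no function, was the 1 named feature called against the pool in I3C, with a mean of 0.79 (limma adjusted p = 0.0357). It was also called in DIM, with a mean of 1.85 (limma adjusted p = 1.6e-06). Its feature on spots 6030209 and 6030210 stood at 0.88 and 0.71 in the I3C samples, against 1.89 and 1.81 in the DIM samples. The samples did not overlap, and the difference was -1.05 ± 0.23 (limma adjusted p = 0.019). It was -0.74 on arrays with treated RNA in Cy3 and -1.37 with it in Cy5, neither called in a fit of that orientation alone (adjusted p = 0.426 and 0.109). The call was also lost without I3C replicate 2 (0.148), without DIM replicate 1 (0.222) and without DIM replicate 2 (0.135). The 2 other features of this gene, from other expressed sequence tags, differed by 0.070 (95% interval -0.37 to 0.51) and 0.057 (-0.46 to 0.58). Averaged over its features, the gene was at -0.31 and was not called (limma adjusted p = 0.689).

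Chaperones fold client proteins in the cytosol, and hsp90ab1 is the constitutive form of HSP90, which holds steroid receptors and the aryl hydrocarbon receptor ready for their ligands. Of its 3 features, 2 were called lower in DIM than in the pool (limma adjusted p = 0.000226 and 0.00022), and neither was called in I3C. The feature on spots 6040611 and 6040612 was at -0.037 and -0.21 in I3C, against -0.996 and -1.04 in DIM, a difference of 0.90 ± 0.22 (limma adjusted p = 0.0371). The feature on spots 6040209 and 6040210 was at -0.073 and -0.26 in I3C, against -1.07 and -1.05 in DIM, with the same difference of 0.90 ± 0.22 (limma adjusted p = 0.0462). The pair cannot count as independent evidence, because both carry the same expressed sequence tag. Within the I3C samples the swap was wide: the Cy3 arrays of the first feature read 1.001 and 0.59 and the Cy5 arrays -1.08 and -1.01. Its difference was 1.45 on Cy3 arrays and 0.34 on Cy5 arrays. Both calls were lost uncentred (0.46 for each, limma adjusted p = 0.408) and without any 1 of the 4 samples, where the adjusted p ran from 0.121 to 0.308. Averaged over its 3 features, hsp90ab1 was at 0.61 and was not called (limma adjusted p = 0.129).

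The third hsp90ab1 feature, from another tag, stood at 0.15 and 0.25 in I3C, against 0.069 and 0.25 in DIM. That difference of 0.040 had a 95% interval of -0.53 to 0.61, which does not reach the size seen in the other 2. hspa8, the constitutive HSC70 chaperone, had 2 features with differences of 0.20 (95% interval -0.35 to 0.75) and 0.055 (-0.39 to 0.50). Over the 5 chaperone features, 2 were called higher, which are the pair with the same tag, and 0 lower. Over all features 1.9% were called higher. The median difference was 0.20 over the 5, against -0.0036 over all features.

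Plasma protease inhibitors are secreted by hepatocytes. antiprot1, an antiproteinase by name, was at -0.19 and -0.12 in I3C, against -1.13 and -0.89 in DIM. Its samples did not overlap, but the difference of 0.85 ± 0.24 was not called (limma adjusted p = 0.0792). It passed with arrays scaled alike (0.0292), in a fit of these 4 samples alone (0.0448) and with array weights (0.0246). Uncentred it fell to 0.42 (limma adjusted p = 0.435), and with print blocks centred it was 0.71 (0.226). ambp, the precursor of α1-microglobulin and bikunin, stood at -0.67 and -0.44 in I3C, against -1.33 and -0.85 in DIM. The difference was 0.54 ± 0.22, and a second ambp feature from the same tag gave 0.50 ± 0.22 (limma adjusted p = 0.35 and 0.429). Uncentred, the ambp differences fell to 0.10 and 0.067. So 0 of 3 features were called, with a median difference of 0.54. These 2 genes are also the only hepatocyte markers among the named features, and ratios hold no level, so the liver identity of the samples could not be checked by markers.

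Genes of the extracellular matrix gave 0 calls in 3 features. col1a2, which encodes an alpha chain of fibrillar collagen, stood at -0.79 and -0.60 in I3C, against -1.23 and -0.88 in DIM, a difference of 0.36 ± 0.22 that turned to -0.077 without centring. One feature of sparc, a collagen-binding matrix protein, read -0.99 and -0.15 in I3C, against 0.095 and 0.20 in DIM (-0.72 ± 0.28, limma adjusted p = 0.306). Almost all of that gap lay on Cy5 arrays, at -1.38, against -0.047 on Cy3 arrays, and mostly on 1 array. The Cy5 array of I3C replicate 1 read -2.34 and that of replicate 2 -0.36, against -0.067 and 0.13 in DIM. The first spot of the feature, taken singly, differed by -1.24. The other sparc feature differed by -0.12 (95% interval -0.60 to 0.36).

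Metabolic genes were not called either. fd6d, a fatty acid desaturase that makes long-chain polyunsaturated fatty acids, stood at 0.16 and -0.041 in I3C, against 0.75 and 0.49 in DIM (-0.56 ± 0.24, limma adjusted p = 0.425). gs04, a glutamine synthetase, was at -0.15 and 0.094 in I3C, against 0.48 and 0.76 in DIM (-0.65 ± 0.26, limma adjusted p = 0.359). In both genes the I3C samples lay below both DIM samples, and DIM was called against the pool (limma adjusted p = 0.0281 and 0.0469). The samples of pparg, a nuclear receptor of lipid storage, overlapped between the diets with -0.19 and 0.81 in I3C, against 0.028 and -0.27 in DIM. Its difference of 0.43 turned to -0.069 without I3C replicate 2 and to -0.0040 without centring. sod1, a superoxide dismutase, had features at 0.29 and -0.076 (95% intervals -0.12 to 0.69 and -0.74 to 0.59). The first of these turned to -0.15 without centring and to -0.13 on Cy5 arrays.

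cyp1a3, the cytochrome P450 that marks activation of the aryl hydrocarbon receptor, did not separate the diets. It read -0.19 and 0.53 in I3C, against 0.33 and 0.20 in DIM, with a difference of -0.093 and a 95% interval of -0.62 to 0.44. Against the pool it was called in no diet of the series, and its mean in BNF was 0.098 (limma adjusted p = 0.957). A feature not called in any diet cannot show whether the diets differ in activating the receptor. rps7, a ribosomal protein, was at -0.20 and -0.36 in I3C, against 0.055 and 0.15 in DIM (-0.38 ± 0.20, limma adjusted p = 0.596). None of the egg-yolk, egg-envelope and estrogen receptor genes listed for estrogen response was among the named features.

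Red cells of fish are nucleated and can carry their RNA into a liver sample. LOC100136291, listed with the β-globin synonym hbb4, was at 0.30 and -0.12 in I3C, against -0.28 and -0.27 in DIM. Its difference of 0.36 (95% interval -0.082 to 0.80) was not called and turned to -0.073 without centring. LOC100135826, whose synonym CA2 is a carbonic anhydrase name, read -0.64 and -0.47 in I3C, against -0.76 and -0.69 in DIM (0.17, 95% interval -0.26 to 0.61). Both red cell features were nominally higher in I3C, and their part in other results was not tested. No leukocyte or pancreas marker was among the named features. Of immune genes, tap1 and tapbp, which load peptides onto class I molecules, differed by -0.074 and -0.12, and the lectin stl3 by -0.041 and -0.011.

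A pair of genes without a stated function had several features each, all to the same side at 500 ppm and to the other side at 1500 ppm. At 1500 ppm they differed by 0.038 to 0.41 in LOC100136295 and by 0.017 to 0.13 in LOC100136294. No feature of the pair was called at 1500 ppm (limma adjusted p = 0.999 for each). Their change between doses was not called either (limma adjusted p from 0.966 to 0.998), so a reversal is not shown. Some features of LOC100136295 share an expressed sequence tag and cannot count as independent evidence. At 500 ppm the 5 features of LOC100136295 differed by -0.28 to -0.44 and the 3 of LOC100136294 by -0.17 to -0.51. Both I3C samples lay below the pool in each of the 8. None was called, with limma adjusted p from 0.339 to 0.932. On Cy3 arrays alone the sign changed for 2 features of LOC100136295 (0.0019 and 0.063) and 1 of LOC100136294 (0.036), and on Cy5 arrays alone it changed for another of LOC100136294 (0.29). Over all 49 named features the difference had the same sign in both orientations for 25. Among genes described above it did not for cyp1a3, LOC100135826, tap1, tapbp, stl3, 1 feature each of hspa8, sod1 and LOC100136761 and the third feature of hsp90ab1. LOC100136258 read 0.28 and -0.56 in I3C, against -0.88 and -1.13 in DIM (0.87 ± 0.30, limma adjusted p = 0.218), with a wide spread between the I3C samples.

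**Figure D3:**
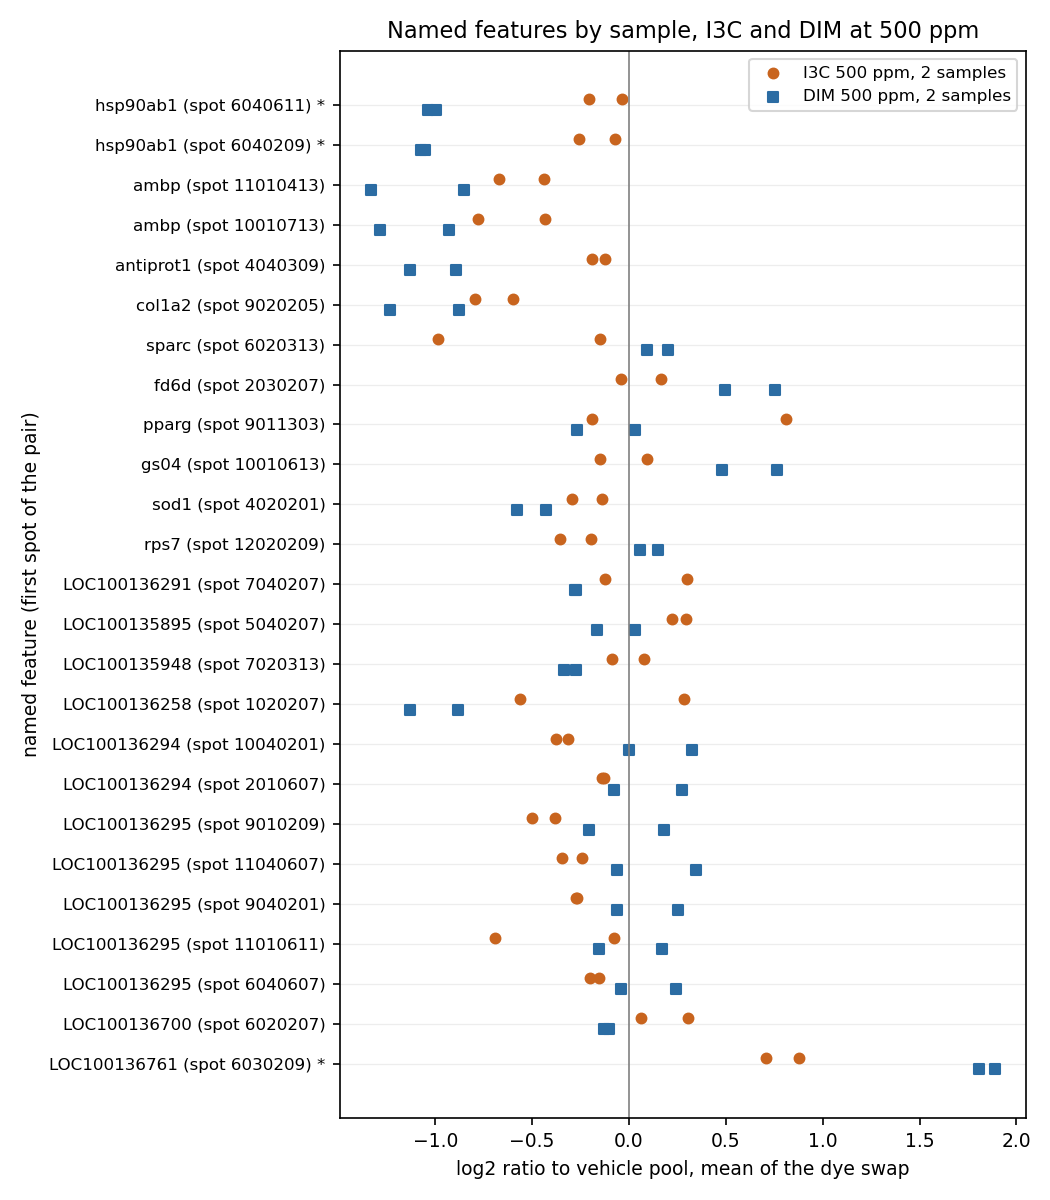
Log2 ratio to the vehicle pool of the 25 named features with the smallest p for I3C minus DIM, ordered by role, with the 2 I3C samples as orange circles above the 2 DIM samples as blue squares. Stars mark the 3 called features. In hsp90ab1, antiprot1 and LOC100136761 the I3C samples lie nearer the pool than the DIM samples, and in rps7 they lie farther from it. Over all 49 named features the I3C mean was the nearer one for 26.

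A feature that was not called is not shown to be alike in both diets, so the intervals matter. The 95% interval of the difference had a median half-width of 0.51 and lay within 1 log2 unit of 0 for 3753 of 4368 features (85.9%). Among the named features it did so for 39 of 49. For the remaining 10 a difference of 1 log2 unit or more in some direction was within the interval. The count fell to 1149 without centring, and to 2069 and 1654 with arrays of 1 dye orientation.

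The same pair of compounds at 1500 ppm gave a second matched comparison with other RNA samples. There, 1 feature was called (0.0229%), with 86 features (1.97%) at an unadjusted p under 0.05 in limma. The called feature, the unnamed spots 10031205 and 10031206, had means of 2.93 in I3C and 1.30 in DIM at 1500 ppm. At 500 ppm its means were 1.38 in I3C and 1.21 in DIM, a difference of 0.17 (95% interval -0.36 to 0.70). Its mean was 3.14 in BNF (limma adjusted p = 1.31e-07) and 0.24 in E2. The 2 samples of a diet correlated at 0.57 in DIM and 0.75 in I3C at 1500 ppm, against 0.85 and 0.37 at 500 ppm. The median SD between replicates was 0.27 in DIM and 0.15 in I3C at 1500 ppm, against 0.12 and 0.16 at 500 ppm. The fit gives both doses the same standard error. With p-values adjusted over the 2 matched doses together, 90 features were called at 500 ppm and 2 at 1500 ppm. The 123 features called at 500 ppm leaned the same way at the higher dose. Of the 40 lower in I3C at 500 ppm, 40 were also below 0 at 1500 ppm, and of the 83 higher, 65 were also above 0. That makes 105 of 123 (85.4%) with the same sign, against 50.9% of all features. Under the alternatives that gave calls, the share ran from 79.6% to 95.5%. The share over all features moved too. It was 60.9% with Cy5 arrays, where the called share was 95.5%, and 69.2% uncentred, where the called share was 90.5%. Members of a response are not independent of each other, so no p is attached to the count of 105.

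**Figure D4:**
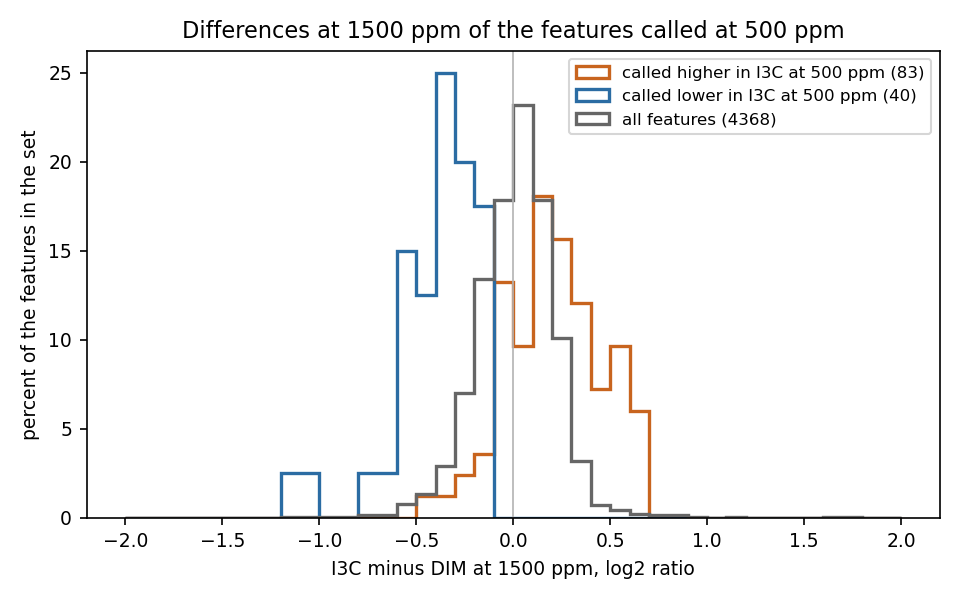
Distribution of I3C minus DIM at 1500 ppm (log2 ratio, horizontal axis) for the features called higher in I3C at 500 ppm (orange, 83), those called lower (blue, 40) and all features (grey, 4368), as percent of each set. The medians lie at 0.20, -0.32 and 0.025.

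The differences at 1500 ppm were smaller. Their median was 0.20 for the features called higher at 500 ppm and -0.32 for those called lower, against 1.16 and -1.04 at 500 ppm. The 500 ppm values chose these features, so some of the drop is built into the choice. The change between doses was therefore tested for each feature as an interaction over all 4368, which called 4 (0.0916%), with 208 (4.76%) at an unadjusted p under 0.05 in limma. The count was 0 with arrays scaled alike and without DIM replicate 1, 1 without I3C replicate 1, 6 without I3C replicate 2 and 23 in a fit of 24 arrays with a dye term. For LOC100136761, I3C minus DIM was -0.34 at 1500 ppm (95% interval -0.83 to 0.14), and for the first hsp90ab1 feature it was 0.22 (-0.24 to 0.68). Their change between doses was not called (limma adjusted p = 0.998 for each).

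The ratios to the pool at both doses are given as a description, because choosing features by their difference at 500 ppm favours those with I3C near the pool at that dose. For the 83 features called higher in I3C at 500 ppm, the median ratio was -0.34 in I3C at 500 ppm and -1.27 in I3C at 1500 ppm. In DIM it was -1.54 at 500 ppm and -1.33 at 1500 ppm. For the 40 called lower, the medians were 0.28 and 1.16 in I3C and 1.34 and 1.48 in DIM, at 500 and 1500 ppm. In 120 of the 123 features I3C at 1500 ppm lay farther from the pool than I3C at 500 ppm, on the side of DIM, against 1839 of all 4368 features (42.1%). Against the pool, 110 of the 123 were called in I3C at 1500 ppm, where 396 of all features (9.07%) were called, and 8 at 500 ppm, where 33 were. All diets share the pool, so these counts are not independent of each other. In the other diets, the 83 features had a median of -0.85 in E2 and -0.13 in BNF, and the 40 had 0.89 in E2 and -0.074 in BNF.

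**Figure D5:**
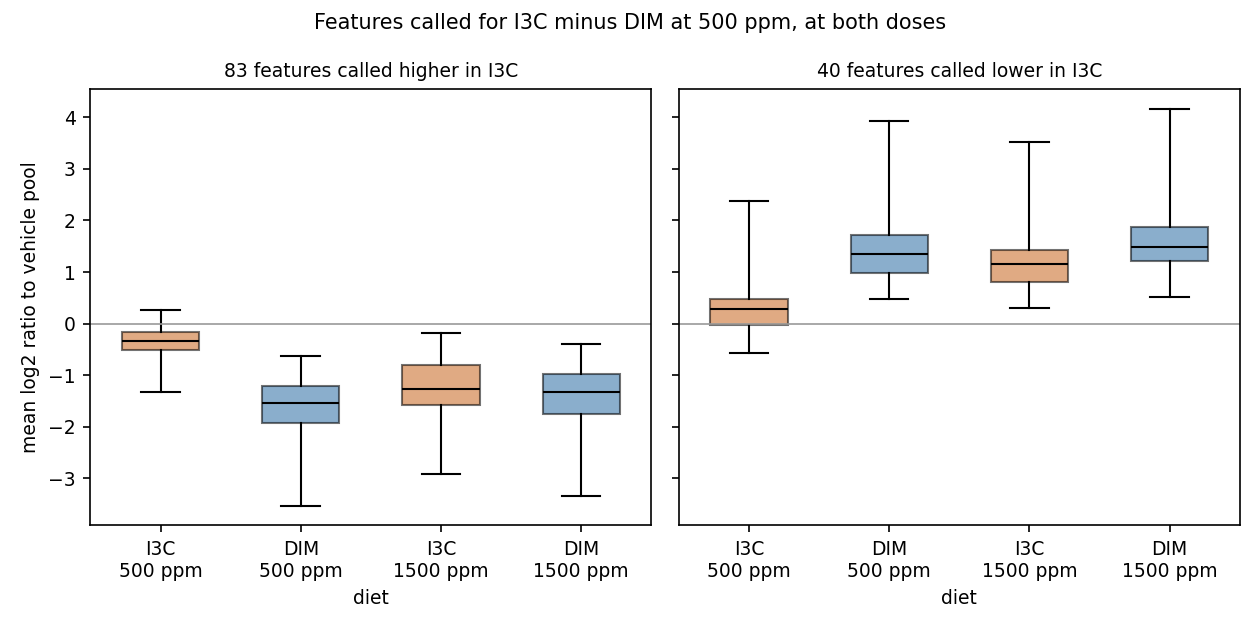
Mean log2 ratio to the vehicle pool (n = 2 samples per diet) in I3C and DIM at 500 and 1500 ppm, for the 83 features called higher (left) and the 40 called lower (right) in I3C at 500 ppm. Boxes give quartiles and medians, and whiskers the full range. I3C at 500 ppm stands nearest the pool, and I3C at 1500 ppm has medians of -1.27 and 1.16, close to those of DIM.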

How the data were processed

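The deposited table gives 8736 spots on 24 2-colour arrays, with 0 missing values. Per the labels' protocols, arrays were scanned on a ScanArray and quantified in QuantArray. How background was corrected, how values were normalised, and the log base and numerator: not given in the sources used here. Of the deposited columns, 23 were read as log2 ratios and 1 (BNF replicate 1, treated RNA in Cy5), a deposited linear ratio, was converted to log2. Deposited medians of the 8 arrays ran from -0.58 to 1.05. Intensities were not used here, so dim spots could not be filtered, and the number of arrays limits the precision.

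Arrays were centred on their medians, spot pairs averaged, and each sample taken as (Cy3-titled minus Cy5-titled)/2, with DIM replicate 1 at 500 ppm and E2 replicate 1 turned. The fit over 12 samples used limma 3.58.1 (R 4.3.3), 1 mean per group, moderated variances and Benjamini-Hochberg adjustment over 4368 features, and was tested on simulated data. Comparisons with the pool hold no spread among control fish. The probe table named 98 spots (49 features, 32 symbols), and 27 of 33 Entrez genes were found in the RefSeq table (USDA_OmykA_1.1). Its current symbols replaced hsc70a with hspa8, and hsp90ba with hsp90ab1. Named in the text are the 25 named features with the smallest p for the comparison, further features of their genes and of fixed gene lists, and the 2 highest and 2 lowest called unnamed features whose arrays did not overlap. Other named features, and those called between doses, were chosen after their values were seen. Members, lists and settings were chosen with earlier results of these data known.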

Additional observations from a re-analysis of the deposited data

Results flagged for a closer look

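The difference between I3C and DIM was called as different at the 2 doses in 4 features, by limma's test of (I3C minus DIM at 500 ppm) minus (I3C minus DIM at 1500 ppm). All 4 are unnamed, and all 4 were low in DIM at both doses. Over all features, 208 (4.76%) had an unadjusted p under 0.05 in this test. The number of calls was 0 with arrays scaled alike, 2 with single spots and 23 in the fit of 24 arrays with a dye term. Spots 7040405 and 7040406 changed by 2.46 ± 0.31 (SE, adjusted p = 0.00509). I3C minus DIM was 2.89 at 500 ppm and 0.43 at 1500 ppm. Spots 2030307 and 2030308 changed by 2.53 ± 0.40 (limma adjusted p = 0.0364), with 2.25 at 500 ppm and -0.28 at 1500 ppm. Spots 9031205 and 9031206 changed by 1.75 ± 0.29 (limma adjusted p = 0.0364), with 2.12 and 0.38. Spots 4020405 and 4020406 changed by 1.70 ± 0.29 (limma adjusted p = 0.0453), with 2.39 and 0.68. In each of the 4, the 4 I3C arrays lay above the 4 DIM arrays at 500 ppm. Arrays were apart, in either direction, for 160 of all 4368 features (3.66%). The tested change contains the difference at 500 ppm, so this separation is no separate evidence.

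In all 4 the I3C mean lay farther below the pool at 1500 ppm than at 500 ppm. Spots 2030307 and 2030308 stood at -0.15 in I3C and -2.41 in DIM at 500 ppm, and at -2.48 in I3C and -2.21 in DIM at 1500 ppm. This feature was near the pool in E2 (-0.15), unlike spots 9031205 and 9031206, which were at -2.99 in E2.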

How the results depend on the processing

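For I3C minus DIM at 500 ppm, the 123 calls became 198 with array weights, 42 with both turned samples left out, 50 and 22 with Cy3 or Cy5 arrays alone, 0 with deposited signs, and 37 to 153 with 1 sample left out. DIM against the pool (464) gave 836 of 8736 single spots, 830 with array weights, 798 with Cy5 arrays, 267 with both turned samples left out, 0 with deposited signs and 261 to 457 with 1 sample left out. I3C against the pool (33) gave 818 uncentred, 974 and 2524 with Cy3 or Cy5 arrays alone, where dye bias does not cancel, 72 in the fit of 24 arrays, 21 with both turned samples left out, 17 in a fit of these 4 samples, 1 with arrays scaled alike, 0 with deposited signs and 16 to 152 with 1 sample left out. For I3C minus DIM at 1500 ppm (1), the count was 2 with a replicate block, the fit of 24 arrays or p adjusted over both doses, 0 with scaled arrays, single spots, array weights, deposited signs or 1 dye, and 0 to 1 with 1 sample left out. The change between doses (4) gave 23 in the fit of 24 arrays, 2 with single spots, Cy3 arrays or both turned samples left out, 1 without BNF replicate 1, 0 with scaled arrays, Cy5 arrays or deposited signs and 0 to 6 with 1 sample left out. Intervals within 1 log2 unit (3753) fell to 1149 uncentred, 2069 and 1654 with 1 dye, and lay between 2978 and 3338 with 1 sample left out. The cause of these changes was not tested for any setting.

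Of 608 values of 32 features under 19 settings, 546 kept their sign and side of the threshold, 29 lost the call, 3 gained it and 30 changed sign. Most of the 32 were not called in the main fit, and such a feature counts as kept while it stays uncalled with its sign. Of the called features, LOC100136761 kept its call in 11 of 19 settings and the hsp90ab1 pair in 9 and 8. The called unnamed features kept theirs in 16 to 18. With deposited signs the change of sign met LOC100136761 (0.83), hsp90ab1 (-0.10 and -0.18), antiprot1 (-0.28), ambp (-0.79 and -0.78), col1a2 (-0.88), fd6d (0.19), sod1 (-0.29), LOC100136258 (-0.015) and the unnamed spots 2030307 (-0.55), 4010307 (0.47), 4020413 (-0.53), 7040405 (-0.67), 4020405 (-0.75) and 9031205 (-0.92). Uncentred, it met LOC100135895 (-0.11), sod1 (-0.15), LOC100136700 (-0.13), LOC100136291 (-0.073), LOC100135948 (-0.14), pparg (-0.0040) and col1a2 (-0.077). On Cy3 arrays it met LOC100136294 (0.036), LOC100136295 (0.063 and 0.0019), LOC100135895 (-0.0098) and LOC100135948 (-0.0062), on Cy5 arrays sod1 (-0.13), and without I3C replicate 2 pparg, which lay between -0.069 and 0.93 with 1 sample left out.

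The labels tie same-numbered replicates only by that number and do not say what it marks. Deviations of I3C and DIM correlated at -0.086, and over all pairs of diets from -0.60 to 0.46. With the replicate block, 114 features were called at 500 ppm, 110 of them shared with the 123, and hsp90ab1 was not called (limma adjusted p = 0.0523 and 0.0581). The share of called features with the same sign at both doses, an alternative set added after seeing the data, was 93.9% with scaled arrays and 95.5% with Cy5 arrays. Over all features it was 55% and 60.9%.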

Other observations

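The 2 I3C samples were less alike than the 2 DIM samples. I3C replicate 1 had 34 features more than 1 log2 unit from the pool, 24 higher and 10 lower, and I3C replicate 2 had 142, of which 135 were higher and 7 lower. The DIM samples had 234 and 227 such features, with 76 and 81 higher and 158 and 146 lower. Without I3C replicate 1 the comparison with DIM called 153 features, of which 79 were shared with the 123, and without I3C replicate 2 it called 49, of which 44 were shared.

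Over all features, the I3C mean lay closer to the pool than the DIM mean for 2288 of 4368 (52.4%), and among the named features for 26 of 49. With arrays centred and DIM replicate 1 turned, the means differed more in the tails: 18 features had a mean ratio more than 1 log2 unit from the pool in I3C and 223 in DIM. The median size of the mean ratio was 0.161 in I3C and 0.154 in DIM. Taken singly, the I3C samples had 34 and 142 such features and the DIM samples 234 and 227. The 2 samples correlated at 0.37 in I3C and 0.85 in DIM, and what averaging them does to the counts was not tested.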
